A study of Mus musculus with 6 samples.

Results

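The BCL2 family sets whether the outer membrane of the mitochondrion stays closed. Its pro-survival proteins bind the effectors and the BH3-only proteins, the effectors open pores in the membrane once they are freed and activated, and the BH3-only proteins carry the death signal to both. In fibroblasts, as in most adherent cells, this balance is known for deciding the outcome of DNA damage, loss of growth factors and stress of the endoplasmic reticulum. The 10 genes described here were fixed by name: the pro-survival genes Bcl2, Bcl2l1 and Mcl1, the effectors Bax and Bak1, and the BH3-only genes Bad, Bcl2l11, Bbc3, Pmaip1 and Bid. They were measured by 14 of the 55681 probes on the array, all those annotated with one of the 10 names.

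The arrays compared immortalized murine embryonic fibroblasts (MEF) that were wild type (WT, strain W4), lacked TIA1 (TIA1 KO, strain BALB/c) or lacked TIAR, the product of Tial1 (TIAR KO, strain C57BL/6). TIA1 and TIAR are related RNA-binding proteins that act on splicing, mRNA stability and translation. Each of the 3 groups had 2 arrays of 1 colour from independent experiments, and the question was which transcripts change when either protein is missing. Each genotype was a line from its own strain, and by their positions on the slide the TIA1 KO arrays sat in a row apart from WT and TIAR KO, so genotype, strain, cell line and slide row cannot be told apart. The p-values measure the spread between arrays of these lines, not between animals.

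As deposited, the values gave no call for any of the 10 genes in either knock-out. A call needed a Benjamini-Hochberg adjusted p from limma under 0.05 and a fold above 2. The count was 0 of 14 probes in TIA1 KO against WT MEF, where 2.32% of all probes were called. It was 0 of 14 in TIAR KO against WT MEF, where 5.65% of all probes were called, and 0 of 14 in TIAR KO against TIA1 KO MEF, where 2.26% were called. In the deposited values the fold from WT was above 2 for Bcl2l11, Bcl2 and Bid, which had lower mean values in TIA1 KO MEF, and for no member in TIAR KO MEF. In such bulk samples, fewer cells of a kind and less RNA per cell cannot be told apart.

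At an unadjusted p under 0.05 the counts were 3 of 14 member probes in TIA1 KO against WT MEF, 1 of 14 in TIAR KO against WT MEF and 4 of 14 between the knock-outs. The same threshold was passed by 26%, 19.4% and 21.4% of all probes. The arrays of the groups did not overlap for 9, 9 and 10 of the 14 member probes, against 65.3%, 47% and 60.3% of all probes. The median difference of the member probes was -0.36 in TIA1 KO against WT MEF on the log2 scale, beside -0.12 over all probes. It was -0.08 in TIAR KO against WT MEF, beside -0.02 over all probes, and 0.35 between TIAR KO and TIA1 KO MEF, beside 0.09. By the scanner software's background test, 42.9% of all probes passed on no array. A further fit kept the probes that passed in at least 1 of the compared groups, 12 of them members. The member median was then -0.31 in TIA1 KO against WT MEF, beside -0.33 over the probes kept. It was -0.14 in TIAR KO against WT MEF, beside -0.05, and 0.35 between the knock-outs, beside 0.29. The comparisons with WT MEF share the WT arrays, and those with TIA1 KO MEF share the TIA1 KO arrays.

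The TIA1 KO arrays measured fewer probes and differed most from each other. Over all probes, replicate arrays correlated at 0.989 in WT, 0.986 in TIAR KO and 0.956 in TIA1 KO MEF. TIA1 KO replicate 1 had a median spot intensity of 458 and a median negative control of 196, TIA1 KO replicate 2 had 218 and 119, and the other arrays had from 119 to 152 and from 88.6 to 112. Between 42.3% and 47.2% of all probes were well above background, by the scanner software's own test, on each WT and TIAR KO array, against 28.8% on TIA1 KO replicate 1 and 35.9% on TIA1 KO replicate 2. Of the member probes, 12 of 14 were well above background on each WT and TIAR KO array, 9 on TIA1 KO replicate 1 and 11 on TIA1 KO replicate 2. Over the whole array, 4733 probes were well above background on both WT arrays and on neither TIA1 KO array, and 333 the other way round. The part of this difference in the member values below was not tested.

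The deleted genes were looked at first. Tial1, which encodes TIAR, had log2 values of 11.84 and 11.19 in WT MEF, 10.23 and 9.86 in TIAR KO MEF, and 12.06 and 11.65 in TIA1 KO MEF with one probe (A_51_P441942). It was down-regulated in TIAR KO MEF by that probe (-1.47 ± 0.27 (SE), limma adjusted p = 0.0339), while its other probe (A_66_P127432) differed by -2.71 ± 0.62 with an adjusted p of 0.0668. With 1 array left out, the difference by this other Tial1 probe ranged from -3.7 to -1.72. Of the 3 Tia1 probes, the one with the highest mean (A_66_P116912) gave 10.57 and 8.71 in WT MEF, 9.75 and 9.77 in TIAR KO MEF, and 7.52 and 8.38 in TIA1 KO MEF. The difference of TIA1 KO from WT MEF was -1.69 ± 0.75, with an adjusted p of 0.248, which did not pass the threshold. With a common array median, where 28.4% of all probes were called, this Tia1 difference was -2.14 and passed (adjusted p = 0.000162 by limma). With 1 array left out it ranged from -2.62 to -0.76. Whether the Tia1 and Tial1 probes lie in the deleted part of either gene was not looked up here, and a probe outside it would not check the label. A second Tia1 probe differed by -1.86. The last one (A_55_P2052377) was the only one with a higher mean in TIA1 KO MEF, with 8.15 and 8.61 against 7.34 and 7.22 in WT MEF. It was well above background on TIA1 KO replicate 2 only, so it gives no exact size of a change. The 8 probes annotated as Gapdh, a glycolytic gene often used as a reference, differed from WT by between -0.38 and 0.12 in TIA1 KO MEF and were not called. With a common array median the Gapdh probe followed through the alternatives (A_55_P2097548) was called lower there, at -1.41 (adjusted p = 0.0158 by limma). That setting moved the median of all probes to -0.67 in TIA1 KO against WT MEF, and 11.9% of its calls were higher.

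Fibroblast identity was also checked with 8 markers. Vim, an intermediate filament gene, was well above background on every array, with values from 17.36 to 17.95. The WT line was low in several others: Pdgfra was not well above background on either WT array. It differed from WT by 3.46 ± 0.23 in TIA1 KO and by 4.95 ± 0.16 in TIAR KO MEF (limma adjusted p = 0.0198 and 0.000181). Signal near background in WT leaves the size of these differences inexact. In all, 5 of the 8 markers were called higher in TIA1 KO MEF, and 7 of 8 were in TIAR KO MEF, with none lower. Beside Pdgfra, the largest of these in TIA1 KO MEF were the collagen gene Col3a1 (6.03 ± 0.17), the receptor gene Pdgfrb (3.33 ± 0.34) and Fn1, which encodes fibronectin (2.73 ± 0.15). In TIAR KO MEF they were Thy1 (7.57 ± 0.2), Col3a1 (6.26 ± 0.48) and Pdgfrb (3.5 ± 0.3). Thy1, a surface marker of many fibroblasts, was well above background on 1 of the WT arrays, on none of the TIA1 KO arrays and on both TIAR KO arrays. It was higher by 7.79 ± 0.19 in TIAR KO than in TIA1 KO MEF (limma adjusted p = 0.0105), a size that is not exact either. The summed linear level of the 8 ran from 330717 to 345870 on the WT arrays, from 1113744 to 1158503 on the TIA1 KO arrays and from 1082307 to 1101408 on the TIAR KO arrays. Of 6 epithelial marker probes 3 were called higher in TIAR KO MEF, namely Krt18 (2.62 ± 0.16), Krt8 by 1 of its probes (1.12 ± 0.16) and Cdh1 (1.57 ± 0.15). The Cdh1 probe was not well above background in WT MEF. The summed linear level of the epithelial list reached 2847 and 2854 in TIAR KO MEF, against 1278 and 2102 in TIA1 KO MEF and only 1174 and 1222 for WT. Of the endothelial list, 1 of the 2 Kdr probes was called, higher by 1.42 ± 0.16 in TIAR KO than in WT MEF (limma adjusted p = 0.0064). This probe was not well above background in WT MEF. The other Kdr probe differed by 0.26 ± 0.16 and was not called. The leukocyte list went both ways: Cd14 was lower in TIAR KO than in WT MEF (-1.27 ± 0.18, adjusted p = 0.0136 by limma) and than in TIA1 KO MEF (-1.51 ± 0.16, adjusted p = 0.0397), and a Cd68 probe (A_55_P1961943) differed from WT by 1.06 ± 0.23 (adjusted p = 0.0603) and was called higher than in TIA1 KO MEF (1.65 ± 0.19, adjusted p = 0.0484). The leukocyte gene Ptprc was not well above background on any array. The part of these marker differences in the member values was not tested.

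For 3 probes the sequence itself shows a known coding stretch, so their 60 bases are given as printed on the array, with positions on mm9. Where the other 11 lie within their genes was not looked up here. The Bcl2l11 probe spans a splice junction between chr2:127972893-127983988 on the plus strand, and the capitals mark the glycine and aspartate codons found in the core of its BH3 region, the part by which BIM binds pro-survival proteins. The Bcl2 probe, from chr1:108608970-108609029 on the minus strand, codes for part of the BH1 region, which helps to form the groove that takes up BH3 regions. The Bcl2l1 probe, from chr2:152655185-152655244 on the minus strand, lies in the coding stretch between the BH1 and BH2 regions.
Bcl2l11: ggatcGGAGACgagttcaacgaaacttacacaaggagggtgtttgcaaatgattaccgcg
Bcl2: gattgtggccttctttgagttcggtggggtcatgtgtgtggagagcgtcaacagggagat
Bcl2l1: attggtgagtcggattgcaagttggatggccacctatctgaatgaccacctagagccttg

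Among the pro-survival genes, Bcl2, the founding member of the family, had log2 values of 10.24 and 10.31 in WT MEF, 10.51 and 10.65 in TIAR KO MEF, and 8.29 and 9.8 in TIA1 KO MEF. The TIA1 KO arrays were both below the others and lay 1.51 apart, and the lower of them was not well above background. The difference of TIA1 KO from WT MEF was -1.23 ± 0.56 (95% interval -2.82 to 0.36, adjusted p = 0.256 by limma). That of TIAR KO from WT MEF was 0.3 ± 0.16 (-0.09 to 0.7, adjusted p = 0.391), and that of TIAR KO from TIA1 KO MEF was 1.54 ± 0.56 (-0.03 to 3.1, adjusted p = 0.239). With a common array median Bcl2 was called lower in TIA1 KO than in WT MEF, at -1.88 (adjusted p = 0.00101 by limma), beside 28.4% of all probes called. It was then called higher in TIAR KO than in TIA1 KO MEF, at 1.96 (adjusted p = 0.00129), beside 14.9% of all probes called. With 1 array left out, the difference between the knock-outs ranged from 0.78 to 2.29. Without TIA1 KO replicate 2 the Bcl2 difference from WT became -1.99 with an adjusted p of 0.02, and without TIA1 KO replicate 1 it was -0.48. Leaving out TIA1 KO replicate 2 also raised the calls over all probes from 1293 to 11146, which is 20% of them.

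Bcl2l1 encodes BCL-XL, which holds BAX and BAK in check. Its brighter probe (A_55_P1974877) gave 14.66 and 14.66 in WT MEF, 14.39 and 14.46 in TIAR KO MEF, and 14.37 and 14.53 in TIA1 KO MEF. Both knock-outs were below WT by little: -0.21 ± 0.15 in TIA1 KO MEF (-0.64 to 0.22) and -0.24 ± 0.15 in TIAR KO MEF (-0.62 to 0.15). These intervals of the deposited values lie within a 2-fold change, whereas with a common array median the TIA1 KO difference of this Bcl2l1 probe was -1.79 (adjusted p = 0.00177 by limma). That setting called 28.4% of all probes in TIA1 KO against WT MEF. The coding probe shown above gave 9.28 and 9.89 in WT MEF, 9.22 and 9.53 in TIAR KO MEF, and 8.38 and 9.72 in TIA1 KO MEF, and all 3 groups overlapped. Its interval in TIA1 KO MEF was wide, -2.09 to 1.02, and the lower TIA1 KO value was not well above background.

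Mcl1 encodes a short-lived pro-survival protein. Its brighter probe (A_51_P238786) gave 15.18 and 15.11 in WT MEF, 14.87 and 14.89 in TIAR KO MEF, and 14.44 and 14.64 in TIA1 KO MEF, so that the groups did not overlap. The difference from WT was -0.6 ± 0.16 in TIA1 KO MEF (-1.06 to -0.15, unadjusted p = 0.0214 and adjusted p = 0.142 by limma) and -0.26 ± 0.15 in TIAR KO MEF (-0.65 to 0.12). Its other probe (A_52_P93933) ran from 12.13 to 12.98 over all arrays, and the 3 groups overlapped. With a common array median both Mcl1 probes were called lower in TIA1 KO MEF, at -2.21 (adjusted p = 0.000101 by limma) and -1.88 (adjusted p = 0.00103). That setting called 28.4% of all probes there.

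**Figure D1:**
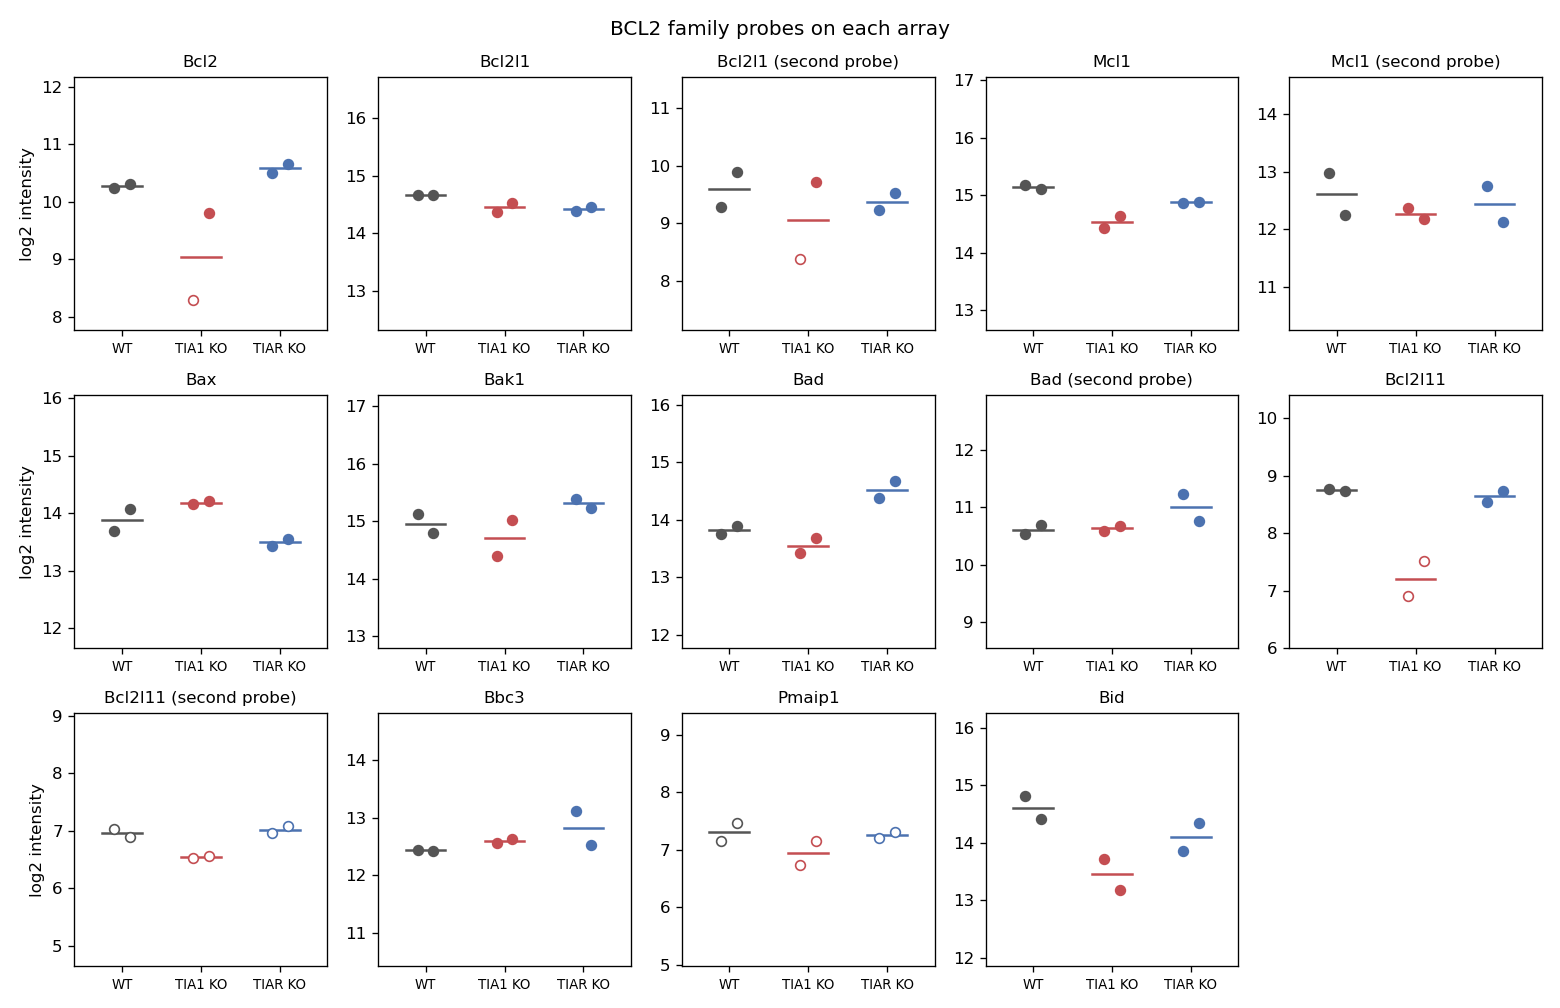
Log2 intensity (vertical axis, a span of the same size in each panel) of the 14 member probes on each array, with WT in grey, TIA1 KO in red and TIAR KO in blue. Points are arrays, open where the probe was not well above background, and lines are group means. The TIA1 KO points of Bcl2l11, at 6.9 and 7.51, are both open and lie below all other arrays of that probe.

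The effectors form the pore in the outer membrane. Bax gave 13.69 and 14.07 in WT MEF, 13.43 and 13.56 in TIAR KO MEF, and 14.16 and 14.21 in TIA1 KO MEF. The order of the means was TIA1 KO, WT and TIAR KO, with no overlap between neighbours. The difference was 0.31 ± 0.2 for TIA1 KO from WT MEF (-0.25 to 0.86), -0.38 ± 0.19 for TIAR KO from WT MEF (-0.87 to 0.1), and -0.69 ± 0.16 for TIAR KO from TIA1 KO MEF (-1.14 to -0.24, adjusted p = 0.142 by limma).

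Bak1, the other effector, gave 15.12 and 14.79 in WT MEF, 15.39 and 15.23 in TIAR KO MEF, and 14.39 and 15.03 in TIA1 KO MEF. The TIAR KO arrays were above the rest, while WT and TIA1 KO MEF overlapped. The difference from WT was 0.36 ± 0.19 in TIAR KO MEF (-0.11 to 0.82) and -0.24 ± 0.3 in TIA1 KO MEF (-1.08 to 0.59). With a common array median both effectors were called lower in TIA1 KO MEF, Bax at -1.27 (adjusted p = 0.0325 by limma) and Bak1 at -1.87 (adjusted p = 0.0011), beside 28.4% of all probes called. That setting also turned the sign of Bak1 in TIAR KO against WT MEF, to -0.11. It turned Bax in TIAR KO against TIA1 KO MEF as well, to 0.45. Without TIA1 KO replicate 1, Bak1 in TIA1 KO differed from WT MEF by 0.08.

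Of the BH3-only genes, Bcl2l11 encodes BIM, which binds all the pro-survival proteins. The probe shown above gave 8.76 and 8.73 in WT MEF, 8.54 and 8.74 in TIAR KO MEF, and 6.9 and 7.51 in TIA1 KO MEF. The TIA1 KO arrays were both lower and not well above background, so the size of the difference is not exact. Compared with TIA1 KO MEF, the fitted level was 2.91-fold higher in WT and 2.7-fold higher in TIAR KO MEF. The fitted difference of TIA1 KO from WT MEF was -1.54 ± 0.26 (-2.28 to -0.8), with an unadjusted p of 0.00477 and an adjusted p of 0.0886 by limma. TIAR KO and WT MEF overlapped, with a difference of -0.11 ± 0.16 (-0.51 to 0.3).

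Whether Bcl2l11 was called depended on the setting. With all 3 groups in one limma fit, the same difference of -1.54 had an adjusted p of 0.0279, where 6.38% of all probes were called. Without TIA1 KO replicate 2 it was -1.85 with an adjusted p of 0.0203, where 20% of all probes were called. With a common array median it was -1.75 with an adjusted p of 0.00228, where 28.4% were called. The other Bcl2l11 probe was not well above background on any array and its values ran from 6.53 to 7.08.

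Bid links death receptors to mitochondria once caspases cut its protein. It gave 14.81 and 14.41 in WT MEF, 13.86 and 14.34 in TIAR KO MEF, and 13.72 and 13.19 in TIA1 KO MEF, and the groups did not overlap. The difference from WT was -1.15 ± 0.28 in TIA1 KO MEF (-1.94 to -0.37, unadjusted p = 0.0156 and adjusted p = 0.129 by limma) and -0.51 ± 0.24 in TIAR KO MEF (-1.11 to 0.09). The Bid probe was well above background on all 6 arrays.

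Bad, whose protein is held back by phosphorylation in the presence of growth factors, had higher values in TIAR KO MEF. Its brighter probe (A_55_P1962234) gave 13.75 and 13.89 in WT MEF, 14.37 and 14.68 in TIAR KO MEF, and 13.42 and 13.68 in TIA1 KO MEF. The TIAR KO arrays were above all others, by 0.7 ± 0.18 from WT (0.25 to 1.16, unadjusted p = 0.00953 and adjusted p = 0.0929 by limma) and by 0.97 ± 0.21 from TIA1 KO MEF (0.39 to 1.56, adjusted p = 0.127). The difference of this Bad probe from WT in TIAR KO MEF was 0.29 with a common array median and 0.29 with scaling to the 75th percentile. With a common array median the probe was called in both comparisons with TIA1 KO MEF. Its difference was 2.11 for TIAR KO from TIA1 KO MEF (adjusted p = 0.000427 by limma) and -1.81 for TIA1 KO from WT MEF (adjusted p = 0.00154). Of all probes, 14.9% and 28.4% were called in these comparisons. The other Bad probe (A_65_P16603) gave 10.53 and 10.69 in WT MEF, 11.23 and 10.77 in TIAR KO MEF, and 10.59 and 10.68 in TIA1 KO MEF, a difference of 0.39 ± 0.21 from WT in TIAR KO MEF with the same sign.

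Bbc3 and Pmaip1 encode PUMA and NOXA, known as targets of p53. Bbc3 gave 12.44 and 12.42 in WT MEF, 13.12 and 12.52 in TIAR KO MEF, and 12.55 and 12.63 in TIA1 KO MEF, with differences from WT of 0.16 ± 0.14 (-0.25 to 0.57) for TIA1 KO MEF and 0.39 ± 0.23 (-0.19 to 0.97) for TIAR KO MEF. The Pmaip1 probe was not well above background on any array, with values between 6.73 and 7.47, and gives no measure of a change. Both intervals of Bbc3, from the deposited values, lie within a 2-fold change, whereas with a common array median its TIA1 KO difference was -1.37.

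**Figure D2:**
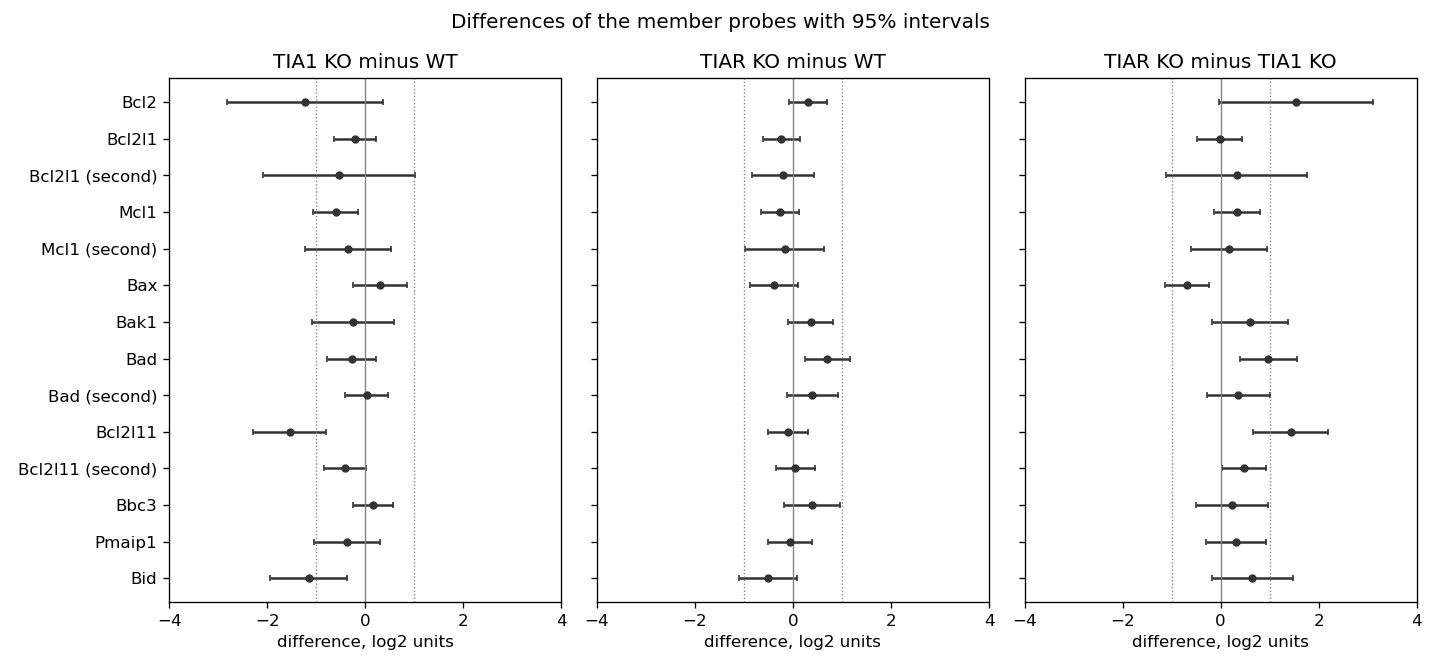
Difference in log2 units (horizontal axis) of each member probe in the 3 comparisons, with the 95% interval from limma as bars and a 2-fold change as dotted lines. Intervals were widest for Bcl2 in TIA1 KO MEF, from -2.82 to 0.36, and the interval of Bcl2l11 there ran from -2.28 to -0.8.

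Other genes of the same pathway were called in TIAR KO MEF. Of 38 genes measured by 58 probes (other pro-survival, BH3-only and effector-like relatives, apoptosome genes, caspases, inhibitors of apoptosis and upstream factors), 3 probes were called higher and 2 lower in TIAR KO against WT MEF, which is 8.62% of them beside 5.65% of all probes. None was called in TIA1 KO against WT MEF, beside 2.32% of all probes. Between the knock-outs 1 was called, which is 1.72% of them beside 2.26% of all probes. Against WT, their median difference was -0.42 for TIA1 KO MEF and -0.11 for TIAR KO MEF, beside -0.12 and -0.02 over all probes. Among probes passing the background test in at least 1 compared group, 12.9% were called in TIAR KO against WT MEF. That share was 9.58% in TIA1 KO against WT MEF and 9.54% between the knock-outs. The medians of such probes against WT were -0.33 with TIA1 KO and -0.05 with TIAR KO MEF. So 8.62% beside 5.65% does not show an excess of calls in these lists.

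Bmf, a BH3-only gene whose protein is tied to the cytoskeleton, had the largest change. It gave 7.72 and 7.75 in WT MEF, 10.33 and 10.09 in TIAR KO MEF, and 7.18 and 7.44 in TIA1 KO MEF. It was up-regulated by 2.48 ± 0.17 from WT (2.06 to 2.89, adjusted p = 0.00116 by limma). In TIAR KO MEF it was higher by 2.9 ± 0.2 than in TIA1 KO MEF (2.34 to 3.46, adjusted p = 0.0194), where it was not well above background. With scaling to the 75th percentile the Bmf difference from WT was 4.37. The call between the knock-outs was lost with that scaling, at 3.02. It was also lost with the fold test treat and with the replicate numbers as a block, at 2.9 in each. Without TIAR KO replicate 1 the Bmf difference from WT was 2.35 (adjusted p = 0.0558), and without TIAR KO replicate 2 it was 2.59 (adjusted p = 0.0531), where 0 and 357 of all probes were called.

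Bok, an effector-like relative of Bax and Bak1, gave 12.54 and 12.77 in WT MEF, 13.68 and 13.64 in TIAR KO MEF, and 13.51 and 13.33 in TIA1 KO MEF. It was up-regulated by 1.01 ± 0.17 in TIAR KO MEF (adjusted p = 0.0245 by limma), and differed by 0.76 ± 0.18 in TIA1 KO MEF (adjusted p = 0.124). Ddit3, which encodes the stress factor CHOP, gave 11.64 and 11.65 in WT MEF, 12.73 and 12.8 in TIAR KO MEF, and 12.07 and 12.34 in TIA1 KO MEF, a rise of 1.12 ± 0.15 in TIAR KO MEF (adjusted p = 0.013). In TIA1 KO MEF its difference was 0.56 ± 0.17 (adjusted p = 0.165).

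Bnip3, a mitochondrial protein gene known in autophagy of mitochondria, was down-regulated in TIAR KO MEF by 2 of its 3 probes. The first (A_55_P2091472) gave 13.73 and 13.82 in WT MEF, 12.69 and 12.53 in TIAR KO MEF, and 12.93 and 12.69 in TIA1 KO MEF, a difference of -1.17 ± 0.16 in TIAR KO MEF (adjusted p = 0.0135 by limma) and of -0.96 ± 0.17 in TIA1 KO MEF (adjusted p = 0.0909). The other called probe (A_55_P2091473) fell by 1.2 in TIAR KO MEF (adjusted p = 0.0184). The probe not called (A_66_P120736) differed there by -0.87 ± 0.17 (adjusted p = 0.0382), under a 2-fold change. In TIA1 KO MEF, where it was not well above background, it differed by -1.54 ± 0.38 (adjusted p = 0.133). With any 1 of the 4 arrays left out, Bok, Ddit3 and Bnip3 were no longer called, but calls over all probes fell too, from 3145 to between 0 and 908. The differences then ranged from 0.89 to 1.12 for Bok and from 1.08 to 1.15 for Ddit3. For Bnip3 they ranged from -1.25 to -1.09 by the first probe and from -1.33 to -1.07 by the other called probe. With a common array median Bok differed by 0.61 (adjusted p = 0.124) and Ddit3 by 0.73 (adjusted p = 0.0334, under a 2-fold change), and neither was called. Bnip3, Bok and Ddit3 differed from WT with the same sign in both knock-outs, and Bmf with opposite signs. Both comparisons use the same WT arrays, so these signs are not independent, and their agreement was not tested.

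**Figure D3:**
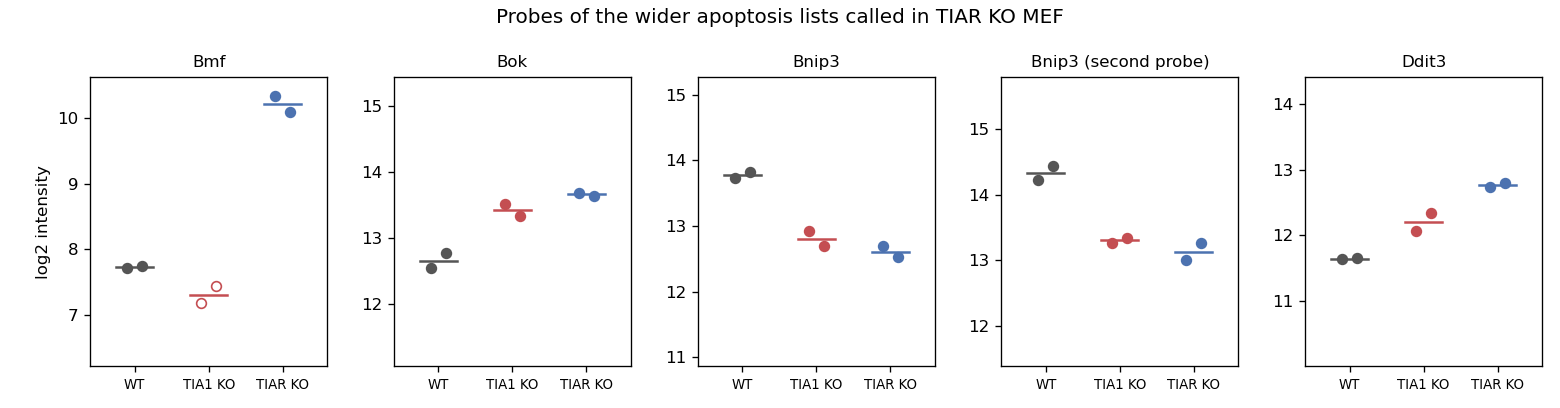
Log2 intensity (vertical axis, a span of the same size in each panel) on each array of the 5 probes of the wider apoptosis lists that were called in TIAR KO against WT MEF, drawn as in the plot of the member probes. Bmf stands at 10.33 and 10.09 in TIAR KO MEF and at 7.72 and 7.75 in WT MEF, and the open TIA1 KO points were not well above background.

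The pattern over the 6 arrays was set beside that of 11528 probes of other named genes well above background on all of them, by the root mean square difference of centred log2 values, for the 3 such members with the widest range of group means. Nearest to Bid was Ppm1g (0.103), nearest to Bad was Polm (0.039, of 11527 probes) and nearest to Bax was Prpf38a (0.068). These distances describe 6 arrays only.

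The values of Bcl2l11, Bcl2 and Bid in TIA1 KO MEF were followed through every way of processing the arrays. Bid lay between -0.89 and -1.42 under all of them but the common array median, which gave -2.76, and Bcl2 ran from -0.48 to -1.99. Scaling the arrays to a common median, which shifted the median of all probes to -0.67 in TIA1 KO against WT MEF, called 11 of the 14 member probes lower there, beside 28.4% of all probes.

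**Figure D4:**
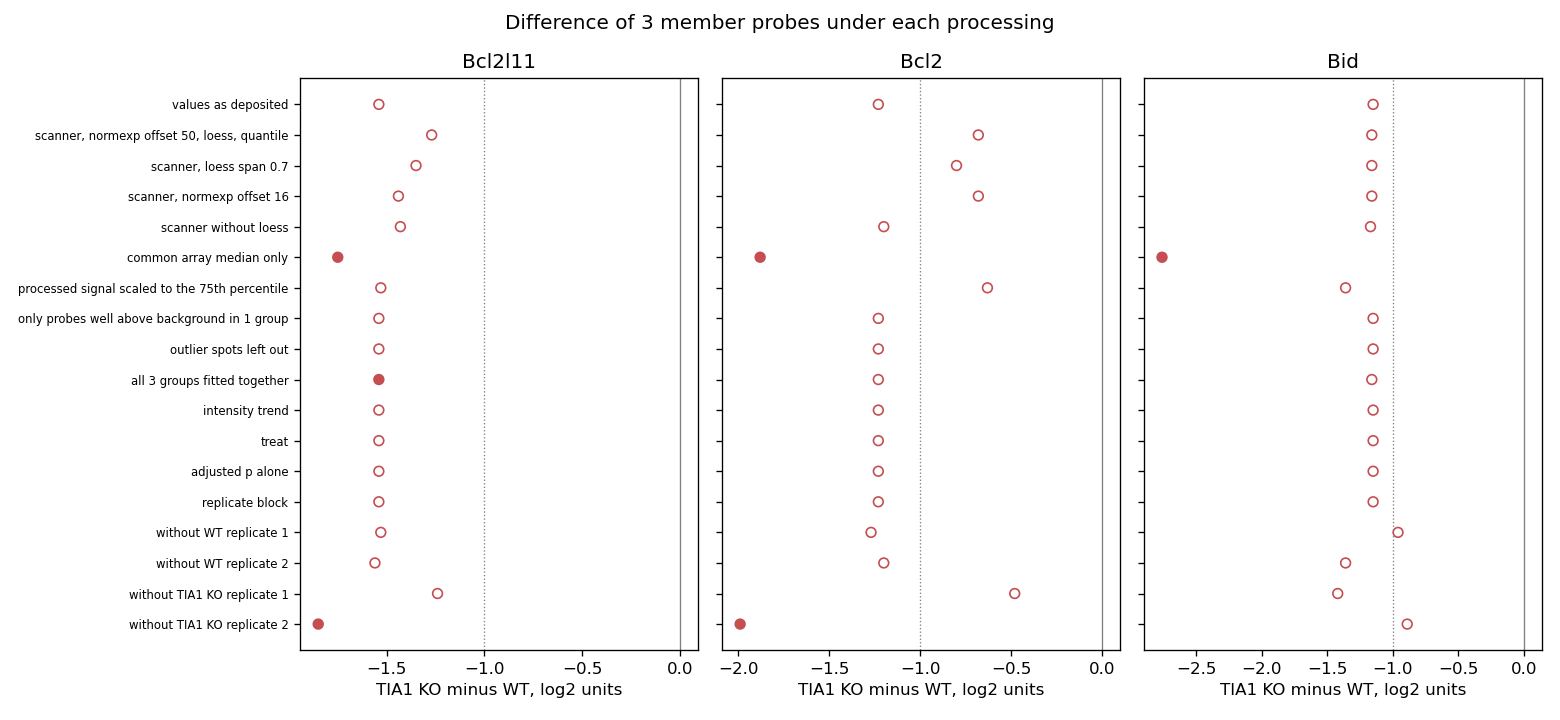
Difference of TIA1 KO from WT MEF in log2 units (horizontal axis) for Bcl2l11, Bcl2 and Bid under each processing (rows), filled where the adjusted p and the fold passed the thresholds and with a 2-fold decrease as the dotted line. All values lie below 0, and Bid was called only with a common array median, at -2.76.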

How the data were processed

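Total RNA of WT, TIAR KO and TIA1 KO MEF (2 arrays each) was hybridised to Agilent mouse arrays of 1 colour. The deposited values are log2 intensities that the authors corrected by normexp with an offset of 50, adjusted by loess and normalised by quantiles. The scanner intensities of spot and local background were deposited too, with flags for background, outliers and saturation. The deposited log2 values were joined to the scanner files by spot number, and spots of a probe were averaged. Differences were fitted with limma 3.58.1 in R 4.3.3 on the 4 arrays of each comparison with Benjamini-Hochberg adjustment over all 55681 probes (0.05, fold 2). Of the 14 member probes, 13 carried a RefSeq accession of the member. Every member probe is named, and from each other list the called probes, up to the 4 with the largest differences per comparison if the group with more signal had each array well above background. Members and lists were chosen with earlier results of these data known. The fits were tested on simulated data.

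Alternatives reprocessed the scanner intensities or changed the fit. The loess pass was run in 2 versions: the planned one with a span of 0.3, and one with a span of 0.7 added after the results, and after a count of called probes made elsewhere from these files, had been seen. Neither replaced the deposited values.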

Additional observations from a re-analysis of the deposited data

Results flagged for a closer look

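Bmf differed between the knock-outs. Its probe (A_55_P2029106) was higher by 2.9 ± 0.2 (SE) on the log2 scale in TIAR KO than in TIA1 KO MEF, by limma's test of that difference (adjusted p = 0.0194), with both TIAR KO arrays above both TIA1 KO arrays. With 1 TIAR KO array left out, the adjusted p of the Bmf difference was 0.389 (without replicate 1) and 0.353 (without replicate 2), at differences of 2.78 and 3.02, but no probe of the array was called between the knock-outs in either case. With all arrays, the Bmf probe was the only probe of the members and the wider apoptosis lists that passed this test. Its call was lost with scaling to the 75th percentile (at 3.02), with treat and with the replicate block (at 2.9 in each). Groups of 2 arrays are too small to test single arrays as outliers.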

How the results depend on the processing

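The count of called member probes stayed at 0 in TIAR KO against WT MEF under every alternative. In TIA1 KO against WT MEF and between the knock-outs it was 11 and 8 with a common array median and 1 and 1 with all 3 groups fitted together, and from 0 to 2 in each when 1 array was left out. Over all probes 6.38% and 5.89% were called with the groups fitted together, and 20% and 20.3% without TIA1 KO replicate 2, the array whose removal gave the 2. It was 0 in the other settings, with the replicate block too. The replicate numbers do not pair the arrays (correlations of same-numbered deviations 0.0252, 0.0721 and -0.0474), and with the replicate block called probes fell from 1293 to 0 in TIA1 KO, from 3145 to 2225 in TIAR KO and from 1261 to 0 between the knock-outs. Over all probes in TIA1 KO against WT MEF, 2345 were called from the scanner intensities with the planned loess span of 0.3 and 1969 with the span of 0.7 chosen after seeing the data, between the knock-outs 2275 and 1866. The common median called 15801 and 8307, 11.9% and 87.2% of them higher, against 67% and 47.2% as deposited, and 4139 in TIAR KO against WT MEF (34.4% higher against 58.9%). The 75th percentile shifted the median of all probes to 1.98 and -1.85 in the comparisons with TIA1 KO MEF. The fold test treat called 368, 927 and 398, and without WT replicate 1 or 2 no probe was called in TIA1 KO against WT MEF (6437 and 6619 at an unadjusted p under 0.05). In TIAR KO against WT MEF, Bok, Ddit3 and both Bnip3 probes also lost their calls with the 75th percentile (at 1.06, 1.22, -1.17 and -1.48) and with treat, and Bmf kept its call in both, at 4.37 with the 75th percentile against 2.48. With the replicate block Bok (adjusted p = 0.0732), Ddit3 (0.0508) and 1 Bnip3 probe (A_55_P2091472, 0.0537) were not called. Between the knock-outs Bmf lost its call by limma with the 75th percentile (adjusted p = 0.0695), with treat (0.0514) and with the replicate block (0.133). Its differences there were 3.02, 2.9 and 2.9, beside 2.9 as deposited.

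The signs of some differences turned as follows. In TIA1 KO against WT MEF the common median gave Bax -1.27, Bad (A_65_P16603) -1.24, Bbc3 -1.37 and Tial1 -0.96, and the 75th percentile gave Bcl2l11 (A_52_P348214) 2.91 and Pmaip1 2.3. In TIAR KO against WT MEF the scanner intensities gave Bcl2l11 (A_52_P348214) -0.05 and Tia1 -0.04, with the span of 0.7 -0.04 and -0.06, with an offset of 16 -0.06 and -0.02, and without loess Pmaip1 0.03 and Tia1 -0.05. The common median gave Bak1 -0.11, Bbc3 -0.04, Pmaip1 0.03, Gapdh -0.15 and Tia1 -0.24, and the 75th percentile Bcl2l11 (A_51_P484880) 0.08, Pmaip1 0.5 and Gapdh -0.1. Between the knock-outs Bcl2l1 (A_52_P510877) was -0.11 from the scanner intensities and -0.16 with an offset of 16, the common median gave Bcl2l1 (A_55_P1974877) 1.09 and Bax 0.45, and the 75th percentile Bcl2l11 (A_52_P348214) -2.4 and Pmaip1 -1.8.

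With 1 array left out, the lone array being assumed to vary like the other group, differences in TIA1 KO against WT MEF ranged from -0.06 to 0.1 for Bad (A_65_P16603), -0.56 to 0.08 for Bak1, -1.21 to 0.13 for Bcl2l1 (A_52_P510877), -0.14 to 0.04 for Gapdh and -0.72 to 0.01 for Mcl1 (A_52_P93933). In TIAR KO against WT MEF they ranged from -0.52 to 0.09 for Bcl2l1 (A_52_P510877), -0.02 to 0.12 for Bcl2l11 (A_52_P348214), -0.54 to 0.19 for Mcl1 (A_52_P93933), -0.21 to 0.1 for Pmaip1 and -0.81 to 1.05 for Tia1. Between the knock-outs they ranged from -0.07 to 0.53 for Bbc3, -0.34 to 1 for Bcl2l1 (A_52_P510877), -0.1 to 0.06 for Bcl2l1 (A_55_P1974877) and -0.13 to 0.49 for Mcl1 (A_52_P93933). The cause of these changes was not tested. Signal near background on the TIA1 KO arrays limits Bcl2 and Bcl2l11, and 2 arrays per group limit the precision of all members.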
